A study of Homo sapiens with 24 samples.

Results

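The metallothionein genes described here are MT1E, MT1F, MT1G, MT1H, MT1M, MT1X and MT2A, 7 genes picked by symbol out of the 33113 genes of the count table. Of these, 5 had a count in at least 1 of the 24 samples and entered tests over 19452 genes. MT2A, MT1E, MT1X and MT1F had counts in all 24 samples and carry the results, while MT1G was at 6 counts or fewer and MT1H and MT1M were at 0 throughout.

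Metallothioneins are small proteins rich in cysteine, whose sulfur atoms hold zinc and copper and also bind cadmium, mercury and platinum. The transcription factor MTF1 switches their genes on through short metal response elements when free zinc rises, and oxidants and glucocorticoids induce them too. They serve as a store of zinc and as a buffer against toxic metals, and platinum drugs are among the compounds their sulfur atoms can react with.

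RNA was sequenced from HCT116, a human colorectal cancer cell line, and from HCT116 oxpl-R, a derivative that survived repeated exposure to oxaliplatin, a platinum drug that damages DNA. All 24 samples, controls included, came from cells of the TetOn-E1A genotype, which carry the adenovirus gene E1A under a doxycycline-inducible promoter. Each line had 4 groups of 3 biological replicates, and the 8 groups were compared by line, by drug and by E1A. The study asked how resistance to the drug is reflected in the transcriptome. HCT116 control and HCT116 oxpl-R control cells were untreated. HCT116 E1A and HCT116 oxpl-R E1A cells received doxycycline at 0.5 µg/mL. HCT116 oxaliplatin and HCT116 oxpl-R oxaliplatin cells received the drug at 25 µM for 24 h, and the groups named E1A + oxaliplatin received doxycycline 3 h before the drug. No group received doxycycline without the transgene, so the agent and E1A cannot be told apart, and the E1A transcript was not analysed here. The resistant line is 1 derivative of 1 parental line, so resistance and other features of that derivative cannot be told apart.

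The genes stand side by side on chromosome 16 in the build GRCh38, each with 3 exons in the transcript used here. MT2A lies at chr16:56608584-56609497, MT1E at chr16:56625475-56627112, MT1M at chr16:56632659-56633981 and MT1F at chr16:56657731-56660698. MT1G, the one member on the reverse strand, lies at chr16:56666730-56668065, MT1H at chr16:56669814-56671129 and MT1X at chr16:56682470-56684196. The coding part with its stop codon had 186 bases in 6 of the genes and 189 in MT1G, and the 21 pairs of coding sequences were 88.7% to 93.7% identical. The coding sequences of the 4 expressed members are shown because the reads have to be divided among such similar transcripts. Capitals mark the bases that differ from MT2A.
MT2A: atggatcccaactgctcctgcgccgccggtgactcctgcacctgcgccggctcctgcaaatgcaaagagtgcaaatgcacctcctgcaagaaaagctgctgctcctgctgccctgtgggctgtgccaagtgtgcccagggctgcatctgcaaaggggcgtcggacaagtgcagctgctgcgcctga
MT1E: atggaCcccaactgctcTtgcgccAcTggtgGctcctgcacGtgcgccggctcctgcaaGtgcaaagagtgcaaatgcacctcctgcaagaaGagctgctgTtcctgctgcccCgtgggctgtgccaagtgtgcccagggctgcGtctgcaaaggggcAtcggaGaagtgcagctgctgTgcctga
MT1X: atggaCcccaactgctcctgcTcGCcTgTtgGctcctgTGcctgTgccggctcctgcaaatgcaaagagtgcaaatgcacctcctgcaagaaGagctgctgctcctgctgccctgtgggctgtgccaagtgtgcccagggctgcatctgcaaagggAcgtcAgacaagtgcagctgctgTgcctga
MT1F: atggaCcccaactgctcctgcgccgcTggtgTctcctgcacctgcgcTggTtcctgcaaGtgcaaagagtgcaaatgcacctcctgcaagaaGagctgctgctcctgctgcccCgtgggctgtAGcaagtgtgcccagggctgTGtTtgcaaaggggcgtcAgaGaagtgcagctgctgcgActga

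In each of these 4 sequences 20 of the 61 codons before the stop codon encode cysteine. MT1E and MT1X each differed from MT2A at 14 bases, and MT1F at 16. Over the whole transcript, 15.3% of the 31-base words of MT1E, 13.9% of MT1F, 31.5% of MT2A and 54.0% of MT1X occurred in a transcript of another gene. Reads from shared stretches were divided by estimation: the value of MT2A was not a whole number in 20 of 24 samples, that of MT1X in 16, that of MT1E in 14 and that of MT1F in 8. How the division affected the values below was not tested.

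The 250 bases before the start of 3 of the genes are printed next, since MTF1 and the general transcription machinery act there. The sequences are from RefSeq (GRCh38.p14), where 3 of the 7 symbols were matched: MT2A at chr16:56608334-56608583, MT1X at chr16:56682220-56682469 and MT1H at chr16:56669564-56669813. MT1E, MT1F, MT1G and MT1M were not among them. Capitals mark the core of the metal response element, searched as TGCACNC or TGCGCNC on both strands.
MT2A: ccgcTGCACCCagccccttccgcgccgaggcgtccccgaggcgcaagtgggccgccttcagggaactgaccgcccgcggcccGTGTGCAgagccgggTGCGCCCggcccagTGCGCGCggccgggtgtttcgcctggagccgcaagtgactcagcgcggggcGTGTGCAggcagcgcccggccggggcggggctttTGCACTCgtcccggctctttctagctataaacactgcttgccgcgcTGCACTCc
MT1X: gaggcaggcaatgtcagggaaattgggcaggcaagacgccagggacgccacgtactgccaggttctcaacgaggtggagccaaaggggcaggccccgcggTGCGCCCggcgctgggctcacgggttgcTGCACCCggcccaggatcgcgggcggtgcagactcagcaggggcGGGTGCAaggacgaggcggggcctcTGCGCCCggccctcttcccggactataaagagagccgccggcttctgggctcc
MT1H: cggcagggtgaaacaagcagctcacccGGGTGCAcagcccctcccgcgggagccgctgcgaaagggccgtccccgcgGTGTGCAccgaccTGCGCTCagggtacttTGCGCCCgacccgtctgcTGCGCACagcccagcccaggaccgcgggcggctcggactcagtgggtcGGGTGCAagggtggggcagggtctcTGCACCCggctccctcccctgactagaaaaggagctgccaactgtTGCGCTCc

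The core occurred 7 times before MT2A, 4 times before MT1X and 8 times before MT1H. Of 35116 promoters of the same length, 24.83% held at least 1 match, 0.370% held 4 or more and 0.0313% held 7 or more. MT1H thus had the most matches of the 3 and no count in any sample, while MT2A and MT1X were expressed. TATAAA on the forward strand began 29 bases before the start of MT2A and 30 bases before that of MT1X, was not found before MT1H, and was present in 6.80% of all promoters. The antioxidant response element searched as TGACNNNGC on both strands occurred in MT2A and in MT1X, 1 match each, against 10.9% of all promoters. GGGCGG, the GC box bound by SP1, was found 2 times before MT2A, 2 times before MT1X and 1 time before MT1H, against 42.6% of all promoters with at least 1 match, and 1 of the matches before MT1X overlapped a metal response element core. CACGTG was not found in the 3 windows and was present in 6.34% of all promoters. These matches are descriptions of letters, and binding was not measured.

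Libraries held 24838095 to 37927720 counts. All 24 held the epithelial markers EPCAM, CDH1, KRT8, KRT18 and KRT19, whose summed level ranged from 5247 to 17522 CPM (counts scaled to a common library size), while PTPRC and CD3E of blood cells, DCN and LUM of fibroblasts and CDH5 and KDR of endothelial cells had at most 14 counts. Other markers of these lists were detected: CD68 of macrophages reached 181 counts and passed 10 counts in 23 libraries, LYZ reached 62 counts and passed 10 in 14, and the collagen genes COL1A2 and COL3A1 reached 489 and 74 counts. The summed level of the 5 fibroblast markers ranged from 13.2 to 53.4 CPM, with COL1A1 at 339 to 1512 counts in the 24 libraries. For 2 libraries of 1 group a few genes stood apart. HCT116 oxpl-R oxaliplatin replicate 2 held 6 genes, MT2A among them, at less than 1/20 of the lower of the other 2 replicates, the others being EIF3M, H3P6, HPRT1, PTTG1 and RPL23AP42. Replicate 1 of that group held 5 mitochondrial genes so, and mitochondrial genes took 1.38% of its counts against 11.03% to 19.7% elsewhere. The other 22 libraries had 0 or 1 such gene among the 6502 checked. Results for MT2A are therefore given with all samples and without HCT116 oxpl-R oxaliplatin replicate 2. This was chosen after the MT2A value of that library was seen, and the cause of that low value was not tested. The share of genes with a count whose value was not a whole number was 72.9% in replicate 1 of that group and 62.8% in replicate 3. It was 43.3% in replicate 2, and 38.7% to 50.3% in the other groups. Fits without replicate 2 rest on replicates 1 and 3 for this group, and how this affected the values was not tested.

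MT2A was the most abundant member per transcript length, at 243 CPM per kilobase on average over the 24 samples. MT1E followed at 107 CPM per kilobase, MT1X at 40.4 and MT1F at 11.6. MT1G summed to 17 counts over 7 of the 24 samples. MT1H and MT1M had none, and a count of 0 in a library allows up to 3 counts, or at most 0.120 CPM; such limits cover counting error only. Of 14 further metallothionein genes and pseudogenes, MT1A, MT1B, MT1P1, MT1P3, MT1XP1, MT2P1 and MT3 had a count in some sample, with at most 5 counts, and MT1L, MT1HL1, MT1CP, MT1DP, MT1IP, MT1JP and MT4 had none.

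The sum of the 4 expressed members differed mostly between drug-treated HCT116 cells and the rest. It was 176 ± 24.4 CPM (SD, n = 3) in HCT116 control and 176 ± 32.2 CPM in HCT116 oxpl-R control cells. In HCT116 oxaliplatin cells it was 312 ± 61.7 CPM and in HCT116 E1A + oxaliplatin cells 268 ± 33.04 CPM. In HCT116 oxpl-R oxaliplatin cells it was 132 ± 60.6 CPM and in HCT116 oxpl-R E1A + oxaliplatin cells 148 ± 24.4 CPM. The mean of 132 CPM includes replicate 2, where MT2A was near 0. In HCT116 oxpl-R oxaliplatin replicates 1, 2 and 3 the sums were 197, 77.3 and 123 CPM. In these bulk samples, fewer cells with the transcripts and less RNA per cell cannot be told apart.

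**Figure D1:**
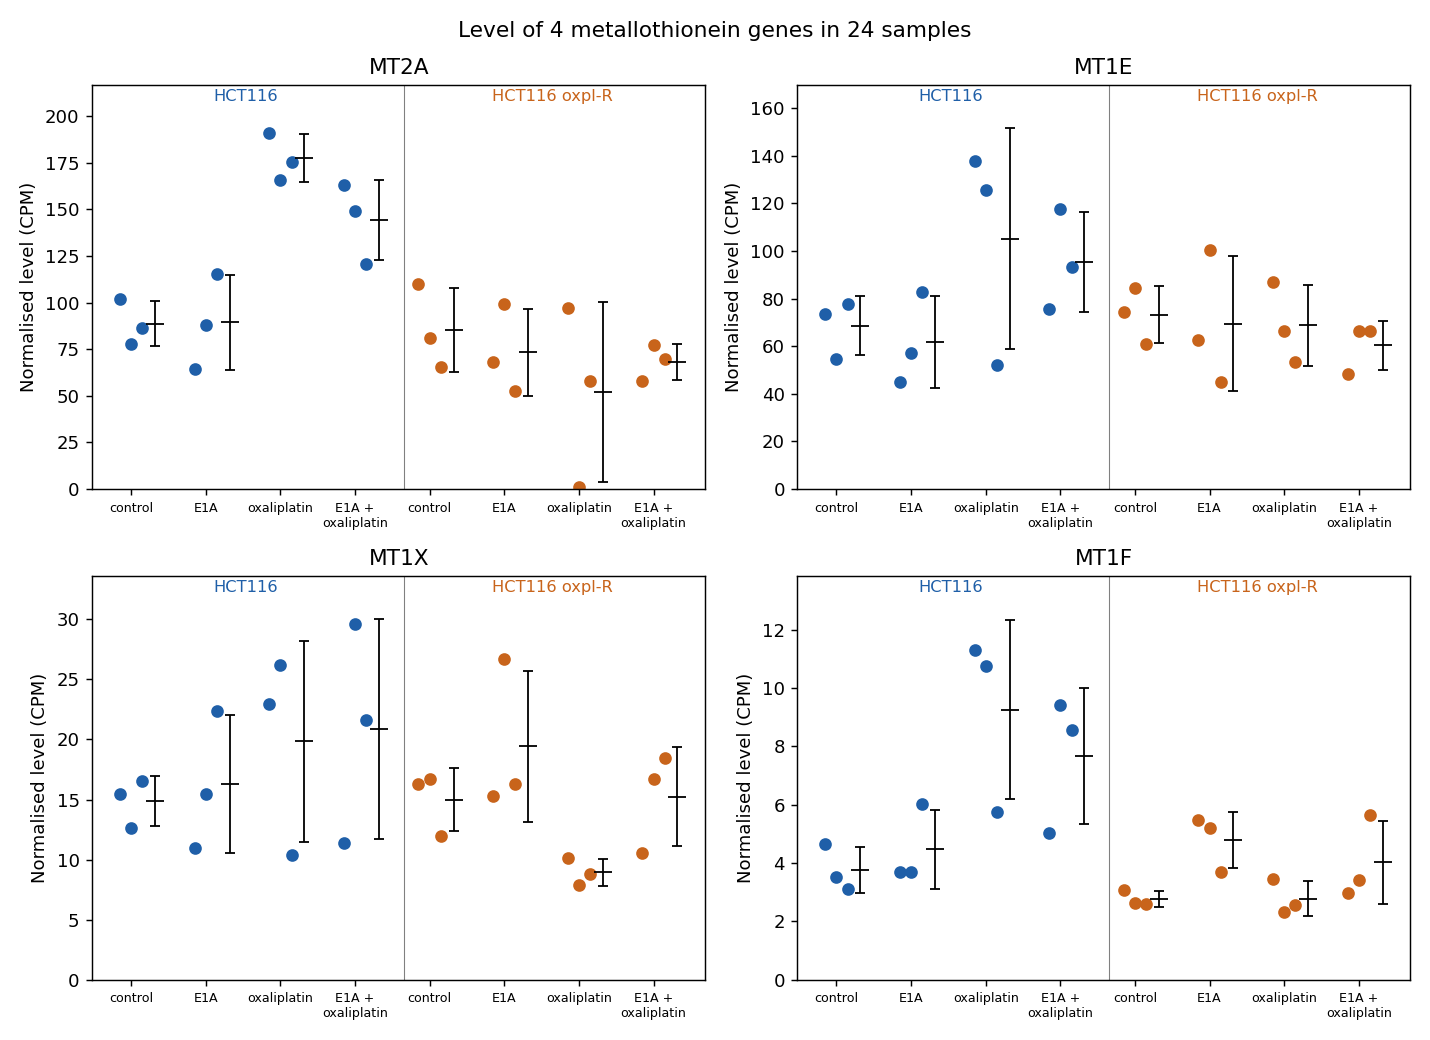
Normalised level in CPM (y axis, from 0) of MT2A, MT1E, MT1X and MT1F in the 8 groups, 1 point per sample, with the mean and SD of each group beside the points; HCT116 is blue and HCT116 oxpl-R orange. The oxaliplatin samples of HCT116 hold the highest MT2A values, 166 to 191 CPM, and 1 HCT116 oxpl-R oxaliplatin sample lies at 0.950 CPM.

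MT2A, the member with the most RNA and the chief human metallothionein in many tissues, stood at 102, 77.7 and 86.5 CPM in the 3 HCT116 control samples. After oxaliplatin it stood at 191, 166 and 175 CPM, and after E1A + oxaliplatin at 163, 149 and 121 CPM. In HCT116 E1A cells it stood at 64.4, 88.0 and 115 CPM. The oxaliplatin samples of HCT116 were thus all above the controls, and the samples with E1A + oxaliplatin all above those with E1A alone. Whether groups overlap is a description here and below, and the share of all genes without overlap was not computed. In HCT116 oxpl-R control cells the values were 110, 80.9 and 65.5 CPM, and in HCT116 oxpl-R E1A cells 67.9, 99.0 and 52.8 CPM. In HCT116 oxpl-R oxaliplatin cells they were 96.9, 0.950 and 57.9 CPM, the second of them resting on 25 counts. In HCT116 oxpl-R E1A + oxaliplatin cells they were 57.8, 77.2 and 69.6 CPM, so that the 4 groups of the resistant line overlapped one another. In the order of the group means, HCT116 oxaliplatin (177 ± 12.9 CPM) and HCT116 E1A + oxaliplatin (144 ± 21.5 CPM) came first, each without overlap with the next group, and the 6 groups below, from 89.3 to 51.9 CPM, overlapped their neighbours.

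MT1E stood at 73.5, 54.8 and 77.8 CPM in HCT116 control cells and at 138, 126 and 51.95 CPM after oxaliplatin. Replicate 3 of the treated cells lay below every control, so these groups overlapped. In HCT116 E1A + oxaliplatin cells MT1E stood at 75.7, 118 and 93.1 CPM, and in HCT116 E1A cells at 44.97, 57.1 and 83.0 CPM. The resistant line held 74.6, 84.4 and 60.7 CPM untreated, 86.9, 66.2 and 53.3 CPM after oxaliplatin and 48.5, 66.5 and 66.2 CPM after E1A + oxaliplatin. With E1A alone its values were 62.8, 100.5 and 44.8 CPM. The group means ran from 105 ± 46.5 CPM in HCT116 oxaliplatin to 60.4 ± 10.4 CPM in HCT116 oxpl-R E1A + oxaliplatin cells, and every group overlapped the next in that order.

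MT1X stood at 15.5, 12.6 and 16.6 CPM in HCT116 control cells and at 22.9, 26.2 and 10.4 CPM after oxaliplatin, where replicate 3 was again the lowest. In HCT116 oxpl-R control cells it stood at 16.3, 16.7 and 11.99 CPM and after oxaliplatin at 10.1, 7.91 and 8.82 CPM. The treated samples of the resistant line were thus all below its controls and below those of treated HCT116 cells. With E1A the values were 11.004, 15.5 and 22.4 CPM in HCT116 and 15.3, 26.7 and 16.3 CPM in HCT116 oxpl-R cells. With E1A + oxaliplatin they were 11.4, 29.6 and 21.6 CPM in HCT116 and 10.6, 16.7 and 18.4 CPM in HCT116 oxpl-R cells. In the order of the group means, from 20.9 ± 9.15 CPM in HCT116 E1A + oxaliplatin cells down, only the last group, HCT116 oxpl-R oxaliplatin with 8.95 ± 1.11 CPM, was separate from the one above it.

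MT1F, the least abundant of the 4, stood at 4.65, 3.53 and 3.10 CPM in HCT116 control cells and at 11.3, 10.7 and 5.75 CPM after oxaliplatin. All 3 treated samples were above the controls, and replicate 3 was once more the lowest of them. In HCT116 oxpl-R cells it stood at 3.09, 2.62 and 2.59 CPM untreated and at 3.47, 2.32 and 2.57 CPM after oxaliplatin, which overlapped. With E1A it stood at 3.70, 3.68 and 6.04 CPM in HCT116 and at 5.47, 5.21 and 3.69 CPM in HCT116 oxpl-R cells. With E1A + oxaliplatin it stood at 5.04, 9.43 and 8.57 CPM in HCT116 and at 2.99, 3.43 and 5.65 CPM in HCT116 oxpl-R cells. The group means ran from 9.26 ± 3.06 to 2.77 ± 0.279 CPM, and every group overlapped the next in that order.

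Oxaliplatin raised MT1F in HCT116 cells. It rose 2.46-fold, by 1.30 ± 0.30 on the log2 scale (SE; adjusted p = 0.00337, edgeR quasi-likelihood test), and was the 1 member called of 5 tested, in a comparison that called 17.4% of all genes. Among genes that passed a filter on low counts the share was larger, with 3852 of 12009 called. MT2A was 2.00-fold higher in the treated cells with no overlap between the groups, and its log2 difference of 1.00 ± 0.57 did not pass the test with all 24 samples (adjusted p = 0.257). HCT116 oxpl-R oxaliplatin replicate 2 belongs to neither of these groups, but its spread enters the SE of the fit over 24 samples. Without that library, left out after its MT2A value was seen, MT2A rose by 1.06 ± 0.24 (adjusted p = 0.00186) in a fit that also called 17.4% of genes. MT2A also passed when the 2 groups were fitted alone (adjusted p = 0.00142). MT1E was 0.61 ± 0.29 higher (adjusted p = 0.155) and MT1X 0.41 ± 0.32 higher (adjusted p = 0.447). Without HCT116 oxaliplatin replicate 3 the difference of MT1E was 0.99 and passed (adjusted p = 0.00672). The median log2 difference was 0.61 over the 5 tested members and 0 over all genes tested.

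That replicate differed from the other 2 of its group in more than these genes. Over 490 expressed genes with transcripts of at most 700 bases, the median deviation from the gene's mean over 24 samples was -0.29 on the log2 scale in HCT116 oxaliplatin replicate 3, against 0.15 and 0.13 in replicates 1 and 2. In HCT116 E1A + oxaliplatin replicate 1, where MT1E, MT1X and MT1F were also lowest of their group, it was -0.22 against 0.14 and 0.04. MT1X, MT1F and MT2A have transcripts of 404, 425 and 401 bases and MT1E one of 704. MT2A was not low in these 2 libraries. Between treated and untreated HCT116 cells the short genes were 0.26 higher in the median, against -0.11 for 10536 longer genes, and their part in the result was not tested. When the dependence of the counts on transcript length was taken out of each library, in a fit that called 16.4% of all genes, MT1F rose by 1.01 (adjusted p = 0.00353) and the differences of MT2A, MT1E and MT1X were 0.82, 0.33 and 0.11 (adjusted p = 0.358, 0.337 and 0.906).

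With E1A, oxaliplatin in HCT116 cells gave differences in the same direction for the 4 genes, and no member was called, in a comparison that called 8.09% of all genes. By edgeR, 2 members had an unadjusted p under 0.05, and DESeq2 called 1, MT1F. Among all 19452 genes tested, 3936 had an unadjusted p under 0.05 and DESeq2 called 2473. MT2A was 0.69 ± 0.56 higher (adjusted p = 0.576), with no overlap between the groups, and rose by 0.77 ± 0.23 without HCT116 oxpl-R oxaliplatin replicate 2 (adjusted p = 0.0367), in a fit that called 7.72% of genes. The differences of MT1E, MT1X and MT1F were 0.63 ± 0.29, 0.36 ± 0.32 and 0.78 ± 0.30 (adjusted p = 0.209, 0.641 and 0.115). Without HCT116 E1A + oxaliplatin replicate 1 the difference of MT1F was 1.081 and passed (adjusted p = 0.0336).

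In HCT116 oxpl-R cells no member was called after oxaliplatin, in a comparison that called 6.11% of all genes. By edgeR 1 member, MT1X, had an unadjusted p under 0.05, and DESeq2 called 0. Of all 19452 genes tested, 3151 had an unadjusted p under 0.05 and DESeq2 called 1793. MT1X was 0.74 ± 0.32 lower in the treated cells with no overlap between the groups (adjusted p = 0.221). MT2A differed by -0.72 ± 0.57 with all samples and by -0.12 ± 0.26 without replicate 2 (adjusted p = 0.619 and 0.981), and MT1E and MT1F differed by -0.09 ± 0.29 and 0.01 ± 0.31 (adjusted p = 1 for both). With E1A, oxaliplatin called 2.80% of all genes in the resistant line and 0 members, 0 of which had an unadjusted p under 0.05 and 0 of which DESeq2 called. There, 2349 of 19452 genes had an unadjusted p under 0.05 and DESeq2 called 931.

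The difference between the responses of the lines was tested by the interaction term, which called 2.78% of all genes. The estimated term was below 0 for all 4 expressed members, and none was called by edgeR, while 3 had an unadjusted p under 0.05 and DESeq2 called MT1F. Among all 19452 genes tested, 3030 had an unadjusted p under 0.05 for this term and DESeq2 called 1321. The term was -1.29 ± 0.43 for MT1F (adjusted p = 0.112), -1.16 ± 0.46 for MT1X (adjusted p = 0.194) and -0.70 ± 0.41 for MT1E (adjusted p = 0.424). For MT2A it was -1.72 ± 0.80 with all samples and -1.18 ± 0.35 without HCT116 oxpl-R oxaliplatin replicate 2 (adjusted p = 0.288 and 0.0701). Without HCT116 oxaliplatin replicate 3 the terms of MT1F and MT1X were -1.58 and -1.504 and passed (adjusted p = 0.0203 and 0.0286). The short genes had a median term of -0.41, against 0.11 for longer genes, and with the length trend removed the terms of MT1F, MT1X, MT1E and MT2A were -0.88, -0.71, -0.37 and -1.37, none called.

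**Figure D2:**
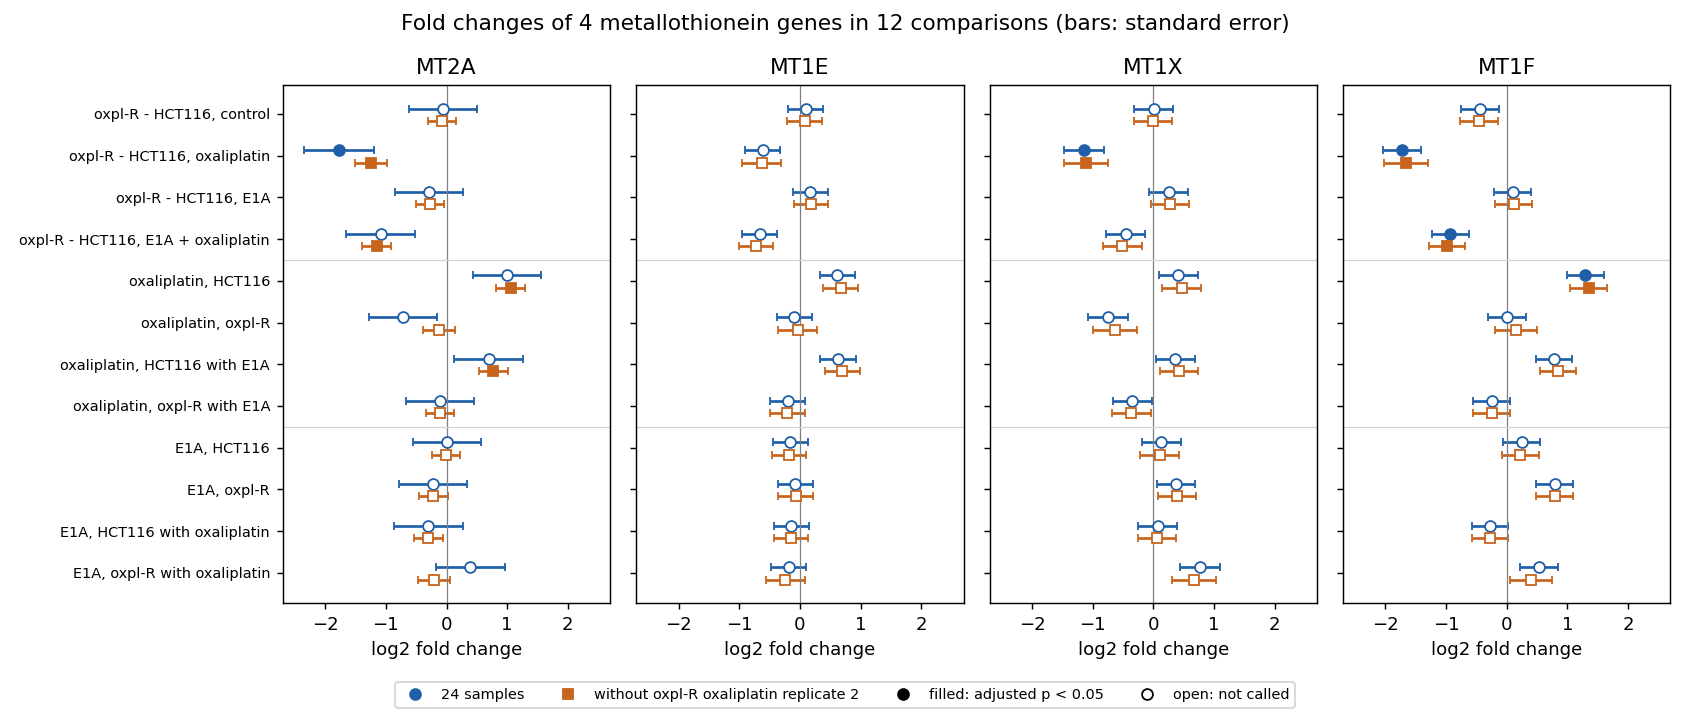
Log2 fold change (x axis) with its standard error for MT2A, MT1E, MT1X and MT1F in the 12 comparisons of 2 groups (y axis), for 24 samples (blue circles) and without HCT116 oxpl-R oxaliplatin replicate 2 (orange squares); filled symbols have an adjusted p below 0.05. The differences between the lines after oxaliplatin lie left of 0, from -0.61 to -1.77, and those after oxaliplatin in HCT116 lie right of it, from 0.41 to 1.30.

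Untreated, the lines did not differ detectably in these genes. No member was called, in a comparison that called 14.1% of all genes, and 0 members had an unadjusted p under 0.05 by edgeR or were called by DESeq2. Among all 19452 genes tested, 4836 had an unadjusted p under 0.05 and DESeq2 called 3371. The log2 difference of HCT116 oxpl-R against HCT116 was -0.06 ± 0.56 for MT2A, 0.09 ± 0.29 for MT1E, 0.01 ± 0.32 for MT1X and -0.44 ± 0.31 for MT1F (adjusted p = 1, 0.992, 1 and 0.417). The samples of MT1F did not overlap, and with the length trend removed its difference was -0.87 and passed (adjusted p = 0.0162), in a fit that called 13.9% of all genes. In this comparison the short genes were 0.41 higher in the resistant line in the median, against -0.05 for the longer ones. With E1A the comparison of the lines called 14.4% of all genes and 0 members, 0 of which had an unadjusted p under 0.05 and 0 of which DESeq2 called. There, 4987 of 19452 genes had an unadjusted p under 0.05 and DESeq2 called 3472.

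After oxaliplatin, 3 of the 5 tested members were lower in HCT116 oxpl-R than in HCT116 cells, in a comparison that called 25.6% of all genes. Among genes that passed a filter on low counts the share was larger, with 5389 of 12009 called. MT1F was 3.32-fold lower, with a log2 difference of -1.73 ± 0.31 (adjusted p = 6.82e-05). MT1X was 2.21-fold lower, with a difference of -1.15 ± 0.33 (adjusted p = 0.00805). MT2A was 3.41-fold lower with all samples, at -1.77 ± 0.58 (adjusted p = 0.0215), and 2.37-fold lower without HCT116 oxpl-R oxaliplatin replicate 2, at -1.24 ± 0.27 (adjusted p = 0.00078) in a fit that called 22.3% of genes. Without replicate 1 of that group, the library low in mitochondrial counts, its difference was -2.59 (adjusted p = 0.00385), and with limma on log2(value + 1) of the second table it was -3.37 (adjusted p = 0.018). Both of these larger differences include replicate 2, where MT2A stood at 0.950 CPM. Fitted with these 2 groups alone, the call of MT2A was lost (adjusted p = 0.152). In none of these 3 genes did the groups overlap, a description given without the share of all genes that do not overlap. MT1E, whose groups overlapped, differed by -0.61 ± 0.29 (adjusted p = 0.134), and by -0.99 without HCT116 oxaliplatin replicate 3 (adjusted p = 0.00497). The median difference was -1.15 over the 5 tested members and 0 over all genes tested, and the short genes differed by 0.01 in the median. With the length trend removed, in a fit that called 27.2% of all genes, MT1F, MT1X, MT2A and MT1E were all called lower, at -1.74, -1.13, -1.86 and -0.59 (adjusted p = 1.36e-06, 0.000118, 0.0095 and 0.0317).

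With E1A + oxaliplatin, MT1F was 1.91-fold lower in the resistant line, at -0.93 ± 0.30 (adjusted p = 0.0267), the 1 member called in a comparison that called 19.3% of all genes. Among genes that passed a filter on low counts, 4241 of 12009 were called. The samples of MT1F overlapped, and the call was lost when HCT116 E1A + oxaliplatin replicate 2 or 3 or HCT116 oxpl-R E1A + oxaliplatin replicate 1 or 2 was left out (adjusted p = 0.0918, 0.053, 0.14 and 0.116). MT2A differed by -1.08 ± 0.57 (adjusted p = 0.211) and was lower, at -1.15 ± 0.24 without HCT116 oxpl-R oxaliplatin replicate 2 (adjusted p = 0.000501, in a fit that called 19.8% of genes), with no overlap between the groups. MT1E differed by -0.66 ± 0.29 without overlap (adjusted p = 0.120) and MT1X by -0.45 ± 0.32 with overlap (adjusted p = 0.389). With the length trend removed, in a fit that called 21.4% of all genes, MT1E, MT1F and MT1X were called, at -0.86, -1.18 and -0.68 (adjusted p = 0.00249, 0.000469 and 0.0205).

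Doxycycline, and with it E1A, moved no member past the test. Without the drug it called 0.432% of all genes in HCT116 and 0.226% in HCT116 oxpl-R cells. With oxaliplatin it called 0.0874% in HCT116 and 1.39% in HCT116 oxpl-R cells. By edgeR 0, 1, 1 and 1 members had an unadjusted p under 0.05 in these 4 comparisons, and DESeq2 called 0 in each. Of all 19452 genes tested, 1215, 972, 603 and 1794 had an unadjusted p under 0.05, and DESeq2 called 191, 119, 23 and 546. In HCT116 oxpl-R cells MT1F was 0.79 ± 0.31 higher with E1A than without (adjusted p = 0.711), and with oxaliplatin MT1X was 0.77 ± 0.32 higher with E1A (adjusted p = 0.397), both without overlap. For the interaction of line and E1A, 355 of 19452 genes had an unadjusted p under 0.05 and DESeq2 called 2. For that of E1A and oxaliplatin these counts were 696 and 8 in HCT116 and 579 and 33 in HCT116 oxpl-R cells. The interaction of line and E1A called 0.0103% of all genes, that of E1A and oxaliplatin 0.0103% in HCT116 and 0.0360% in HCT116 oxpl-R cells, and 0 members were called in each, 0 of which had an unadjusted p under 0.05 and 0 of which DESeq2 called. In the same cells HSPA1B, which encodes a heat shock protein, rose with E1A by 1.79 ± 0.22 in HCT116 and by 1.66 ± 0.22 in HCT116 oxpl-R cells (adjusted p = 7.27e-06 and 6.00e-05); HSPA1A is a near-identical copy, so the division of reads between them is uncertain.

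The correlation between members depended on the pair, the measure and 1 library. On log2(CPM + 1) over the 24 samples, the Pearson correlation was 0.71 between MT1E and MT1X, 0.72 between MT1F and MT1X and 0.68 between MT1E and MT1F. With the group means removed these were 0.88, 0.80 and 0.76, so the MT1 genes varied together between replicates of a group too. MT2A correlated with MT1E at 0.35, with MT1F at 0.55 and with MT1X at 0.52, and without HCT116 oxpl-R oxaliplatin replicate 2 at 0.71, 0.74 and 0.43. With the group means removed as well, these 3 values without that library were 0.64, 0.39 and 0.44. By Spearman correlation over the 24 samples MT2A stood at 0.69 with MT1E, 0.71 with MT1F and 0.49 with MT1X, in the range of the pairs of MT1 genes, at 0.47 to 0.68, or just above it. The level of MT2A was 3.37 times that of MT1E in HCT116 oxaliplatin replicate 3 and 2.15 times in HCT116 E1A + oxaliplatin replicate 1, and 0.0144 times in HCT116 oxpl-R oxaliplatin replicate 2. These points share libraries, groups and reads from similar transcripts, and the values are descriptions.

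The genes whose pattern over the 24 samples was most like that of a member were sought among 9503 genes by Pearson correlation of log2(CPM + 1). For MT1E they were ELP5, NME2, PSMB10, MRPL11 and DMAC1, with r from 0.83 to 0.87, and 5 of these 5 were also among the 5 nearest by Spearman correlation. For MT1X they were COPRS, MEA1, NME2, PPIH and IMMP1L, with r from 0.86 to 0.88, of which 2 were also among the 5 nearest by Spearman correlation and 1 without HCT116 oxpl-R oxaliplatin replicate 2. The transcripts of the genes named for MT1E and MT1X had 690 to 2456 bases, against a median of 3208 over the genes searched. For MT2A they were HRAS, SERF2, EIF1, PCBP2 and RN7SL1, with r from 0.78 to 0.85, of which 0 were among the 5 nearest by Spearman correlation, and these rested on 1 library: without HCT116 oxpl-R oxaliplatin replicate 2 the r of HRAS was 0.02, and the 5 nearest genes were EMP3, CFL1, INO80E, RAB20 and QPCTL, with r from 0.86 to 0.90. The samples share groups, libraries and depth, so these values are descriptions.

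Among 13 regulators of metallothionein transcription, 11 were tested, since the available values end before USF1 and USF2. After oxaliplatin in HCT116 cells 0 were higher and 4 lower, among them SP1 at -0.85 ± 0.21 (adjusted p = 0.00495), MTF1, the metal sensor itself, at -0.66 ± 0.23 (adjusted p = 0.0494) and NFE2L2, the factor of the antioxidant response, at -0.64 ± 0.18 (adjusted p = 0.0114). In HCT116 oxpl-R cells 1 was higher after the drug, STAT3 at 0.95 ± 0.19 (adjusted p = 0.00107), and 0 were lower. Between the lines after oxaliplatin the resistant line held 0 of them higher and 4 lower, with CREBBP at -1.06, CTCF at -0.82 and EP300 at -0.79. Untreated, 4 were lower in the resistant line too. The share of all genes called was 17.4% after oxaliplatin in HCT116 and 6.11% after the drug in the resistant line. Between the lines it was 25.6% after oxaliplatin and 14.1% untreated. In the second table, which served for SP1 and STAT3, these shares were 16.4%, 5.80%, 25.1% and 12.8%.

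Of the zinc exporters all 8 were tested, and SLC30A1, the exporter of the plasma membrane and itself a target of MTF1, was higher in the resistant line, where MT1F, MT1X and MT2A were lower after the drug. It stood at 74.1 CPM after oxaliplatin in HCT116 oxpl-R cells and at 32.6 CPM in HCT116 cells, higher by 1.18 ± 0.23 (adjusted p = 0.00017), and it was 0.71 ± 0.22 higher untreated (adjusted p = 0.0332). In the resistant line it rose with the drug by 0.78 ± 0.22 (adjusted p = 0.0321). Also between the lines after oxaliplatin, SLC30A7 was higher by 1.21 and SLC30A3 lower, at -1.73, making 2 exporters higher and 1 lower. After oxaliplatin in HCT116 cells 0 exporters were higher and 2 lower, SLC30A9 at -1.13 and SLC30A5 at -0.51. Of the 12 zinc importers, all tested, 2 were higher and 2 lower in the resistant line after oxaliplatin, with SLC39A1 at -1.03, SLC39A4 at -0.90 and SLC39A9 at 0.85. In HCT116 cells the drug raised 4 importers and lowered 3, with SLC39A13 at 1.03, SLC39A6 at -1.02 and SLC39A4 at 0.89. These transporters were tested in the second table, where 25.1% of genes were called between the lines after oxaliplatin, 12.8% between the untreated lines, 16.4% after oxaliplatin in HCT116 cells and 5.80% after oxaliplatin in HCT116 oxpl-R cells.

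Of 12 genes of metal and oxidant stress 11 were tested, since the available values end before TXNRD1. In HCT116 cells oxaliplatin raised 3 and lowered 2, with HMOX1, which encodes the enzyme that degrades heme, 0.96 ± 0.17 higher (adjusted p = 0.000176), SLC7A11, the cystine importer, at -2.20 ± 0.40 (adjusted p = 0.000371) and GCLC, which makes the precursor of glutathione, at -0.85 ± 0.23 (adjusted p = 0.00903). Between the lines after oxaliplatin the resistant line held 4 higher and 3 lower, with SLC7A11 at 1.92, NQO1 at 1.496 and FTL at -0.96. HMOX1 was called in the same direction as MT1F in both comparisons, while NQO1 and SLC7A11 were higher in the resistant line. Of 7 glucocorticoid targets, all tested, 2 rose and 2 fell after oxaliplatin in HCT116 cells, with CEBPD at 0.96, ERRFI1 at -0.79 and DUSP1 at 0.74. Between the lines after oxaliplatin the resistant line held 1 higher and 5 lower, with PER1 at -1.94, FKBP5 at -1.39 and CEBPD at -1.03. Of all genes, 17.4% were called after oxaliplatin in HCT116 cells and 25.6% between the lines after oxaliplatin. In the second table, which served for genes after SETP6 such as SLC7A11, these shares were 16.4% and 25.1%.

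Of 19 genes that flank the cluster, all tested, the resistant line held 2 higher and 4 lower after oxaliplatin. Those called included CPNE2 at -0.99, BBS2, the nearest listed gene before MT2A, at 0.84 and HERPUD1 at 0.83. The nearest listed gene after MT1X, NUP93, was at -0.81. In HCT116 cells oxaliplatin raised 2 and lowered 3, with NUDT21 at -1.22, PLLP at 1.11 and HERPUD1 at -0.98. Untreated, 1 was higher and 3 lower in the resistant line, with NUDT21 at -1.35, OGFOD1 at -0.71 and NUP93 at -0.70. In these comparisons 25.6%, 17.4% and 14.1% of all genes were called.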

How the data were processed

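Total RNA was made into mRNA libraries, and the reads were trimmed with Trimmomatic and quantified by the authors with Salmon 1.6.0 on GENCODE transcripts of GRCh38, then summed per gene. For the 24 samples the authors deposited these sums, which are estimated counts and were not normalised. The table used here runs in alphabetical order from its start to SETP6. A second table, which is named as TPM, sums to more than TPM would and was read as length-scaled estimated counts the authors deposited; it served for genes after SETP6, which differs from the unit first assumed for it. Its last row is incomplete and was not used, so that it ends at TSC22D3. Genes that sort after TSC22D3, among them USF1, USF2 and TXNRD1, were not analysed.

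Values were rounded and compared in R 4.3.3 with edgeR 4.0.16: TMM, genes with a count in any sample, 1 mean for each of 8 groups over all 24 samples, quasi-likelihood tests, and p-values adjusted after Benjamini and Hochberg across the genes of a comparison, with calls at an adjusted p below 0.05. Levels are TMM-normalised CPM, except the summed levels of the cell type markers, which are CPM of the library total without TMM. SE is the log2 fold change over the root of the F statistic. DESeq2 1.42.0 and limma 3.58.1 served for alternatives. The fitting steps were checked on simulated data. Groups followed the sample titles.

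Named were the 7 members, 14 other metallothionein genes, up to 3 called genes of largest change per fixed list (NUP93, HSPA1B in HCT116 and HMOX1 between the lines were named after their values were seen), and the 5 genes most like each of the 3 most abundant members. The members and lists were chosen with earlier results of these data known. Positions and transcripts are from GENCODE release 44 on GRCh38, matched by symbol, where the authors used a later release, and for members the protein-coding transcript with 3 exons and 186 or 189 coding bases was taken. Motifs and plots were made in Python 3.11.15 with Biopython 1.88 and matplotlib 3.10.9.

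Deviations from the group means were correlated in all 3 pairs of samples that share a replicate number in 2 comparisons. These were the lines after oxaliplatin (0.141, 0.188 and 0.253 over genes) and oxaliplatin in HCT116 oxpl-R cells with E1A (0.419, 0.480 and 0.529). In each of the other 10 comparisons at least 1 pair was at 0.084 or below. Some of their other pairs were correlated more, as for oxaliplatin (0.465 and 0.547) and for E1A (0.508 and 0.678) in HCT116 oxpl-R cells. Labels call the samples biological replicates and do not say more about their origin, so p-values measure the spread between these samples.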

Additional observations from a re-analysis of the deposited data

How the results depend on the processing

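The number of members called was as reported in every comparison under RLE size factors, the filter on low counts and both pseudocounts of limma on the second table. It moved under these settings: with only the groups compared from 3 to 2 between the lines after oxaliplatin, to 3 between the lines with E1A + oxaliplatin, to 2 after oxaliplatin in HCT116 cells and to 1 after oxaliplatin in HCT116 cells with E1A; with DESeq2 to 1 in the last of these and to 1 for the interaction of line and oxaliplatin; and with edgeR on the second table to 1 after oxaliplatin in HCT116 cells with E1A. Leaving out each sample in turn gave 3 to 4 between the lines after oxaliplatin, where 3 were reported (4 without HCT116 oxaliplatin replicate 3), 0 to 1 between the lines with E1A + oxaliplatin, 1 to 2 after oxaliplatin in HCT116 cells, 0 to 1 in the same cells with E1A and 0 to 2 for the interaction. Settings chosen after seeing the data were the removal of the length trend, which gave 1 between the untreated lines, 4 between the lines after oxaliplatin and 3 between the lines with E1A + oxaliplatin, also with the replicate block (1, 4 and 3), and leaving out HCT116 oxpl-R oxaliplatin replicate 2 everywhere, which gave 2 between the lines with E1A + oxaliplatin, 2 after oxaliplatin in HCT116 cells and 1 in the same cells with E1A. The number of all genes called moved too. With only the groups compared it was 3380 of 16342 between the lines after oxaliplatin and 3126 of 16904 with E1A + oxaliplatin. After oxaliplatin in HCT116 cells it was 3759 of 16135, and 1661 of 16595 with E1A. DESeq2 called 2473 of 19452 genes in the latter and 1321 for the interaction of line and oxaliplatin. In the second table edgeR called 1607 of 22833 after oxaliplatin in HCT116 cells with E1A. The cause was not tested.

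Between the untreated lines MT1X turned from 0.01 to -0.0038 with the replicate block, to -0.029 with edgeR and to -0.026 with limma at both pseudocounts on the second table, to -0.0049 without HCT116 oxpl-R oxaliplatin replicate 2 and to -0.42 without the length trend (-0.43 with the block too), and MT1E to -0.23 (-0.24 with the block). Leaving out each sample gave -0.10 to 0.15 for MT1X, -0.046 to 0.21 for MT1E and -0.30 to 0.10 for MT2A there, and -0.29 to 0.069 for MT1E and -0.18 to 0.15 for MT1F after oxaliplatin in HCT116 oxpl-R cells. In the main fit these differences were near 0, while those without the length trend were larger. They were called under none of these settings. The replicate block in the fit over 24 samples changed no count of members called. In the comparisons where not every pair was correlated, 0 to 5 of the 6 samples correlated best with their own number.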
